A study of Mus musculus with 19 samples.

Results

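The class 3 semaphorin system in the E9.5 mouse heart was described here through 10 genes taken by their symbols, 5 ligands (Sema3a, Sema3c, Sema3d, Sema3e and Sema3f) and 5 receptors (Nrp1, Nrp2, Plxna2, Plxna4 and Plxnd1), among 24421 gene rows of the 'HEART' table. Of these, in the 'SHF' data, 9 of the 10 had a locus of their own among 22769 symbols, and Nrp1 was held only in a locus joined with the microRNA gene Mir1903. Each library came from 1 embryo, either a conditional knockout, Mesp1-Cre; Chd7 fl/fl (cKO), or a Mesp1-Cre control, so both genotypes carried the Cre. The 19 libraries came from 11 embryos, since all 8 embryos of 'HEART' also gave an 'SHF' library. Mesp1-Cre acts in early mesoderm, and cells of other origin in the dissected tissue, such as neural crest and epithelium, keep Chd7. 'HEART' (4 control and 4 cKO libraries) was the outflow tract with the heart tube, and 'SHF' (5 control and 6 cKO libraries, deposited as 1 authors' FPKM value per genotype) was the distal pharyngeal apparatus with the dorsal pericardial wall, where other cell types are present too.

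Class 3 semaphorins are secreted guidance cues. Most of them bind a neuropilin, which holds the ligand, together with a plexin, whose intracellular part passes the signal to small GTPases and the cytoskeleton. Sema3e is the exception in the family, as it binds Plxnd1 directly. In the embryonic heart the system is best known for the entry of cardiac neural crest cells into the outflow tract, for septation of that vessel, for patterning of vessels and for later innervation.

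Library totals in 'HEART' ran from 8640839 to 15030099 counts. Levels are given as CPM, counts scaled to the library total with TMM factors, in which 1 read is worth 0.065 to 0.12 CPM. Chd7 was 224 to 242 CPM in the control libraries and 20.36 to 43.5 CPM in the cKO libraries, which matched the labels. All 10 cardiomyocyte markers were present, and none of them passed the test described below, which 6.44% of all genes tested passed. The markers summed to 42340 to 47960 CPM in controls and 41430 to 45730 CPM in cKO. Xist was high in all 4 cKO libraries (34.6 to 86.3 CPM) and in control 1 (61.4 CPM), and was at most 1.28 CPM in controls 2 to 4. Control 4 stood apart in its erythroid markers, which summed to 12620 CPM against 1206 to 5703 CPM in the other 7 libraries. Embryo codes share a prefix between cKO 1 and cKO 2, between control 3 and cKO 3, and between control 4 and cKO 4. Nothing in the labels says what the prefix means or whether embryos came from separate litters, so p-values measure the spread between these libraries.

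To ask which members differed between the genotypes in 'HEART', counts were fitted with edgeR's quasi-likelihood test, and genes with a Benjamini-Hochberg adjusted p below 0.1 over the 12694 genes tested were called. Of the 9 members tested, 3 were called, beside 6.44% of all genes (54.6% of these higher in cKO, or 43.0% when libraries were scaled by their totals). The ligands Sema3a and Sema3c fell (2 of 4 ligands tested, beside 2.92% of genes called lower), and the receptor Nrp1 rose (1 of 5 receptors, beside 3.51% called higher). Sema3e did not reach the minimum count for testing. The median log2 fold change was -0.51 over the 4 tested ligands and 0.13 over the 5 receptors, beside -0.01 over all genes tested. The ligand median depends on which ligands are members. Over all 7 class 3 ligands, of which 6 were tested, it was -0.16, with 2 called lower and 1 (Sema3g, not a member) called higher. Sema3a, Sema3c and Nrp1 were also those tested members whose genotype ranges did not overlap, against 10.2% of all genes tested (5.1% without overlap and lower in cKO).

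**Figure D1:**
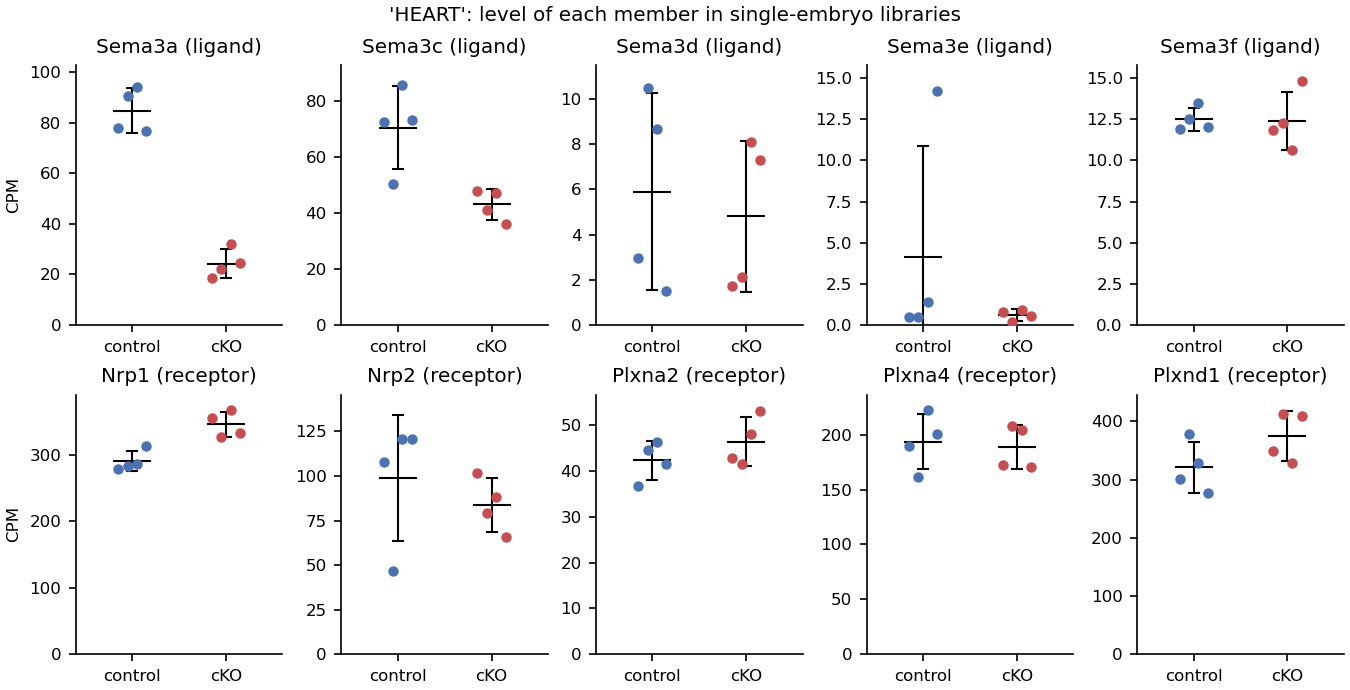
Level of each member in 'HEART' (y axis, CPM, from 0 in each panel) by genotype (x axis), with 1 point per single-embryo library, a horizontal line at the mean of 4 libraries and bars of 1 SD, drawn no lower than 0. Sema3a lay at 18.5 to 31.8 CPM in cKO against 76.7 to 94.0 CPM in controls, Sema3c and Nrp1 were the other members without overlap, and Sema3e was high in 1 control library only.

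Sema3a, a repellent cue for axons that also patterns the nerves of the later heart, showed the largest difference of the members tested (ENSMUSG00000028883.17, GRCm38 chr5:13125414-13602565, plus strand). Its level was 77.8, 90.6, 94.0 and 76.7 CPM in controls 1 to 4, and 18.5, 22.3, 31.8 and 24.4 CPM in cKO 1 to 4. Every cKO library lay below every control library, with a gap between 31.8 and 76.7 CPM. The means were 84.8 ± 8.82 CPM and 24.2 ± 5.61 CPM (SD, n = 4 each). Sema3a fell by 1.82 on the log2 scale (SE 0.14, 95% interval -2.11 to -1.52, 3.53-fold, edgeR adjusted p = 2.44e-05), and it ranked 4 of 12694 genes by p. The call held when any 1 library was left out (log2 fold change -1.96 to -1.71, adjusted p from 2.01e-05 to 0.000265). With log2 Xist as a covariate the estimate was -1.68 (adjusted p = 0.00303). It was -1.69 when the 4 cKO libraries were set against control 1 alone, a value with no spread among controls.

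Sema3c, a ligand needed in mice for septation of the outflow tract, fell by less (chr5:17574281-17730268, plus strand). It was 72.5, 50.4, 85.8 and 73.3 CPM in controls and 47.9, 41.1, 47.3 and 35.9 CPM in cKO. The genotypes did not overlap, but control 2 at 50.4 CPM lay close above the highest cKO library. The means were 70.5 ± 14.7 CPM and 43.1 ± 5.68 CPM (n = 4 each), a fall of 0.72 on the log2 scale (SE 0.14, 95% interval -1.02 to -0.41, 1.64-fold, edgeR adjusted p = 0.0123). It was called with each library left out in turn (adjusted p from 0.0016 to 0.0541). With Xist as a covariate the estimate was -0.73 but the call was lost (adjusted p = 0.173), and against control 1 alone the estimate was -0.75.

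Markers of other cell types were read beside Sema3a and Sema3c. Of 9 second heart field markers 8 were tested and 3 fell in 'HEART' (Hand2, Fgf10 and Mef2c), beside 2.92% of all genes called lower. The 9 markers summed to 624 to 722 CPM in controls and 486 to 577 CPM in cKO. Nearly all of this sum came from Nkx2-5, Mef2c and Hand2 (means of 268, 235 and 150 CPM in controls). Nkx2-5 is also among the cardiomyocyte markers, and Isl1 and Tbx1 were at 7.14 and 1.03 CPM in controls. Of 9 neural crest markers 4 were tested and Twist1 fell, beside the same 2.92%, with overlapping sums of 93.5 to 153 CPM and 94.3 to 115 CPM. Of 10 neuron markers 5 were tested and none passed (median -0.44), beside 6.44% of all genes called. Their sums of 14.0 to 32.2 CPM and 13.5 to 16.4 CPM overlapped. The part of these cell types in the ligand levels was not tested, and in bulk RNA fewer cells of a type cannot be told apart from less RNA per cell.

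The sequence before the start of each gene was taken from RefSeq (GRCm38.p6), where 8 of the 10 members matched, and is shown for the ligand that fell most and for the receptor that rose. Each line gives the 250 bases before the RefSeq start, with CG dinucleotides in capitals. The window of Sema3a is chr5:13396534-13396783 (plus strand), and that of Nrp1 is chr8:128358823-128359072 (plus strand). Both lie inside the longer GENCODE genes, which begin further upstream, but in none of their annotated exons.
Sema3a: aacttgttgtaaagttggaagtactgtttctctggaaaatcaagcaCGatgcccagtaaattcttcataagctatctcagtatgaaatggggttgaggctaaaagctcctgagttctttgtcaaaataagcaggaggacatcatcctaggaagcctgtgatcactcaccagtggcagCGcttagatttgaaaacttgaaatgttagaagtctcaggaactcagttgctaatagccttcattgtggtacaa
Nrp1: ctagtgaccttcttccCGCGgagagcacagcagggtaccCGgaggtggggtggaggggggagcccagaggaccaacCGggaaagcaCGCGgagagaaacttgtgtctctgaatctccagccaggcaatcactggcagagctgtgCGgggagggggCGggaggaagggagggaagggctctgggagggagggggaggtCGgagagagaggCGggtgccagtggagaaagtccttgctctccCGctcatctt
The Sema3a window held 2 CG dinucleotides at 40.8% GC, and 13.8% of 27025 promoters had a lower GC content (median 52% GC and 6 CG). The Nrp1 window held 11 at 64.4% GC. That of Sema3c (chr5:17574566-17574815), which lies in an exon of another annotated Sema3c transcript, held 39 CG at 78.4% GC, more CG than 98.5% of promoters. The pair of ligands that fell in 'HEART' thus have start regions of very different composition. Of the motifs searched on both strands, the E-box letters CANNTG were in 4 of 8 member windows, among them Sema3a and Sema3c, and in 66% of all promoters. The NKX letters AAGTG were in Sema3d and Sema3c and in 40.8% of all promoters, the T-box letters GGTGTGA were in Nrp2 alone (3.31% of all), and the letters TAATTA of homeodomain factors (4.9% of all) were in none of the 8. The letters AGATAA of the GATA family (10.3% of all) were in none either.

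Sema3d and Sema3e, which guide vessels and are at low level in this tissue, gave no call and moved with single libraries. Sema3d (chr5:12383385-12588948) was 2.97, 10.5, 8.65 and 1.49 CPM in controls and 1.73, 2.13, 8.08 and 7.30 CPM in cKO. Its levels were thus low in controls 1 and 4 and in cKO 1 and 2, and several times higher in the other libraries of both genotypes (log2 fold change -0.31, SE 0.57, 95% interval -1.56 to 0.93, edgeR adjusted p = 0.842). The 7 markers of the proepicardium and septum transversum, tissue at the venous pole of the heart from which the epicardium grows, summed to 70.5, 113, 89.6 and 37.6 CPM in controls and 59.4, 65.2, 103 and 110 CPM in cKO. These sums were low and high in the same libraries as Sema3d. Tbx18, one of the 7, was 26.1, 51.4, 31.8 and 8.75 CPM in controls and 25.7, 23.1, 45.9 and 49.3 CPM in cKO. Not every marker followed: Aldh1a2 was 7.24, 4.35, 3.31 and 3.63 CPM in controls and 6.98, 9.09, 5.03 and 5.53 CPM in cKO, and Lhx2 was highest in control 1 (3.04 CPM). How much proepicardial tissue each dissection held, and its part in Sema3d, was not tested.

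For Sema3e (chr5:14025276-14256689) the libraries held 7, 6, 17 and 172 counts in controls and 10, 2, 8 and 7 counts in cKO. Control 4 alone, at 14.2 CPM, was high, and the other 7 libraries lay between 0.164 and 1.37 CPM. Without the filter on low counts the edgeR estimate was -2.78 (SE 0.90, adjusted p = 0.123), and it rested on control 4. That library also held more of the erythroid markers than any other and, among controls, the highest summed level of 9 pharyngeal epithelium markers (502 CPM against 247 to 254 CPM), nearly all of it from Krt8, Krt18 and Krt19. Cdh1 was 9.66 CPM in control 4 against 0.259 to 1.88 CPM in controls 1 to 3, and Epcam 2.48 CPM against 0.388 to 1.29 CPM, while Foxe1 was at 0 and Pax9 at most 0.256 CPM in controls. In cKO the same sum was 500 to 559 CPM with Sema3e at or below 0.936 CPM. Of this list 5 genes were tested, and Krt19 was called higher in cKO (1.18, edgeR adjusted p = 0.000892), beside 3.51% of all genes called higher. The part of either tissue in Sema3e was not tested.

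**Figure D2:**
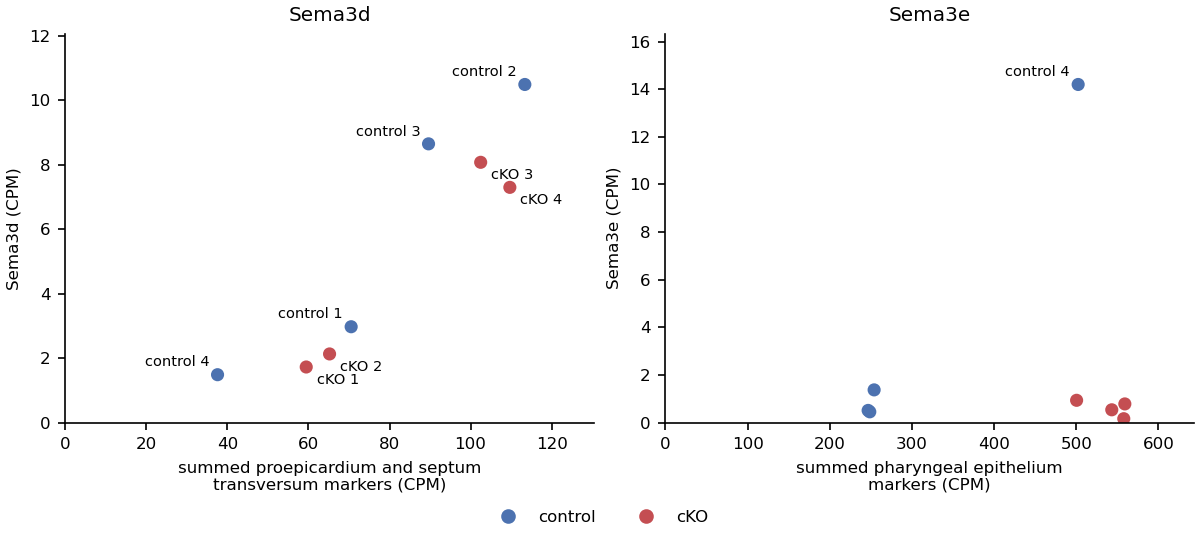
Sema3d (left, y axis, CPM) against the summed level of 7 proepicardium and septum transversum markers (x axis, CPM), and Sema3e (right) against that of 9 pharyngeal epithelium markers, with 1 point per 'HEART' library coloured by genotype. Sema3d was 1.49 to 2.97 CPM where the marker sum was 37.6 to 70.5 CPM and 7.30 to 10.5 CPM where it was 89.6 to 113 CPM, in libraries of both genotypes, and Sema3e was high in control 4 alone.

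Sema3f, a ligand that prefers Nrp2, varied little (chr9:107681500-107710475). It was 11.9, 12.5, 13.5 and 12.1 CPM in controls and 11.8, 12.29, 10.7 and 14.8 CPM in cKO. The estimate was -0.00 (SE 0.12, edgeR adjusted p = 0.991), and its 95% interval of -0.27 to 0.26 leaves out a change of the size seen for Sema3c.

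Divided by exon length, so that genes can be set side by side, Sema3a stood close to Sema3c in controls and below it in cKO. In controls Sema3a (13.6 ± 1.42 CPM per kb) and Sema3c (12.8 ± 2.68 CPM per kb) were the main ligands and their ranges overlapped. Sema3c was the higher of the pair in controls 1, 3 and 4, and only control 2 (14.5 CPM per kb of Sema3a and 9.18 of Sema3c) put the mean of Sema3a first. Sema3f came next at 3.58 ± 0.207 CPM per kb. In cKO Sema3c stood first at 7.84 ± 1.03 CPM per kb, above the range of Sema3a (3.89 ± 0.901 CPM per kb), which now overlapped that of Sema3f (3.56 ± 0.504 CPM per kb). Sema3b, Sema3g, Sema3d and Sema3e followed below in controls, each overlapping the next. Summed over all 7 class 3 ligands, the level was 31.3, 31.0, 37.8 and 34.1 CPM per kb in controls and 18.2, 18.6, 20.5 and 19.4 CPM per kb in cKO.

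As a share of that sum, Sema3a was 36.1 to 46.9% in controls and 16.3 to 25.0% in cKO, while the shares of Sema3c overlapped (38.1 ± 5.78% and 41.0 ± 5.89%, n = 4 each). Sema3f, whose own level gave no call, took 10.7 ± 0.683% in controls and 18.6 ± 2.87% in cKO, a share that follows from the smaller sum. The ratio of Sema3a to Sema3c per length was 0.946, 1.58, 0.965 and 0.922 in controls and 0.341, 0.478, 0.594 and 0.598 in cKO. Sema3a was thus the smaller of the pair in 3 of 4 controls as well as in all cKO libraries, but by more in cKO, and the ratios of the genotypes did not overlap.

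**Figure D3:**
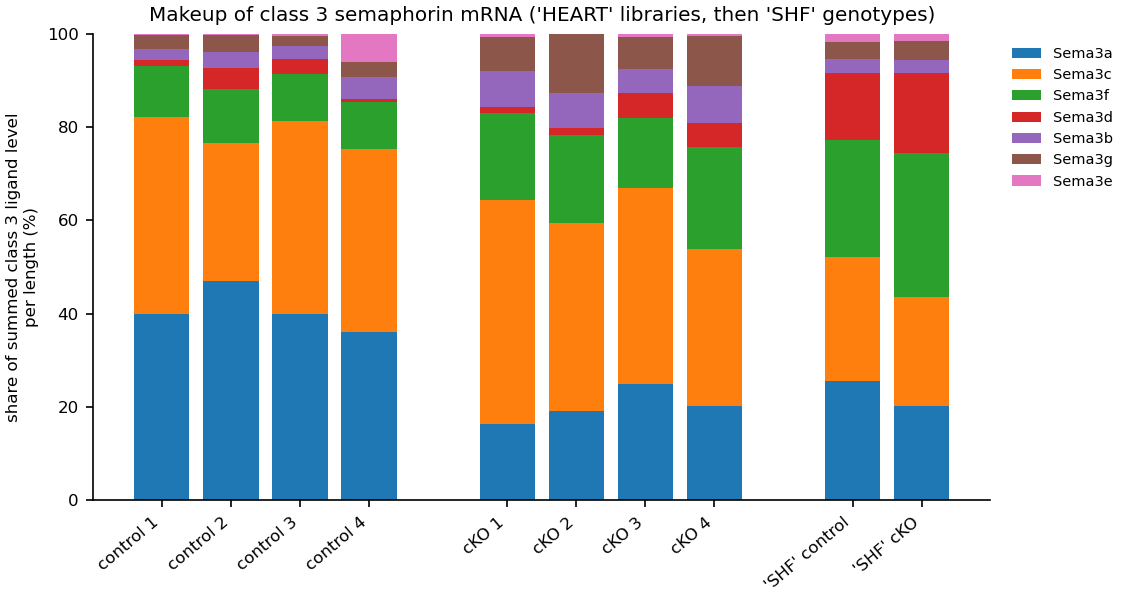
Share of each class 3 ligand in the summed level per length (y axis, %) in the 8 'HEART' libraries (from CPM per kb) and in the 2 'SHF' genotypes (from the authors' FPKM). Sema3a made up 36.1 to 46.9% in 'HEART' controls and 16.3 to 25.0% in cKO, and 25.5% and 20.3% in 'SHF'.

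Nrp1, the neuropilin that binds Sema3a and also the vascular growth factor VEGF-A, rose slightly (chr8:128358604-128503363). It was 280, 284, 287 and 313 CPM in controls and 356, 328, 368 and 333 CPM in cKO, so that no cKO library lay below 328 CPM and no control above 313 CPM. The means were 291 ± 15.1 CPM and 346 ± 19.1 CPM (n = 4 each), a rise of 0.25 on the log2 scale (SE 0.07, 95% interval 0.11 to 0.39, 1.19-fold, edgeR adjusted p = 0.049). The direction held but the call was lost without control 1, 2 or 3 or without cKO 1 or 3 (adjusted p from 0.113 to 0.157) and with Xist as a covariate (0.295, adjusted p = 0.255). Against control 1 alone the estimate was 0.31. Endothelial cells express much Nrp1, and 9 of 10 endothelial and endocardial markers had estimates above 0. Their median was 0.20 with no call, beside a median of -0.01 and 6.44% called over all genes tested. The marker sum was 951, 1290, 989 and 983 CPM in controls and 1094, 1329, 1002 and 1290 CPM in cKO, which overlapped, and its part in Nrp1 was not tested.

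The other receptors gave no call. Nrp2 (chr1:62703285-62818695), the neuropilin of Sema3f and Sema3c, was 108, 46.8, 121 and 121 CPM in controls and 102, 79.4, 88.1 and 65.6 CPM in cKO. Control 2 lay far below the other controls and below every cKO library (log2 fold change -0.25, SE 0.23, 95% interval -0.75 to 0.26, edgeR adjusted p = 0.668). Without control 2 the estimate was -0.48 and passed (adjusted p = 0.0644), so 1 library decided the value. Control 2 also had the highest summed neural crest markers (153 CPM, against 93.5 to 134 CPM in the other libraries) and neuron markers (32.2 CPM, against 13.5 to 30.6 CPM), and their part in it was not tested.

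Plxnd1 (chr6:115954811-115995005), a plexin of endothelial cells whose loss in mice disturbs the outflow tract, was 302, 379, 328 and 277 CPM in controls and 349, 414, 330 and 410 CPM in cKO. The genotypes overlapped, and the estimate of 0.23 (SE 0.10, 95% interval 0.00 to 0.45) did not pass (unadjusted p = 0.0465, edgeR adjusted p = 0.289). Plxna2 (chr1:194618218-194816869), a plexin that marks cardiac neural crest cells in mice, was 36.7, 44.6, 46.4 and 41.6 CPM in controls and 42.8, 41.6, 48.0 and 53.2 CPM in cKO (0.13, SE 0.10, 95% interval -0.08 to 0.35, edgeR adjusted p = 0.56). Plxna4 (chr6:32144268-32588192), through which Sema3a acts on sensory and sympathetic axons, was 190, 162, 222 and 201 CPM in controls and 172, 208, 205 and 171 CPM in cKO (-0.04, SE 0.10, 95% interval -0.26 to 0.18, edgeR adjusted p = 0.898). For both plexins the intervals leave room for changes of the size seen in Nrp1 in at least 1 direction. Plxna4 shares 110 bp of exon with the antisense gene Plxna4os3. No source used here says whether strand was used in counting, so their reads cannot be told apart.

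Per exon length the receptors kept 1 order in both genotypes. Nrp1 (80.9 ± 4.20 CPM per kb in controls, 96.3 ± 5.30 in cKO) and Plxnd1 (46.5 ± 6.30 and 54.4 ± 6.17 CPM per kb) came first, followed by Plxna4, Plxna1, Nrp2, Plxna2 and Plxna3. Plxna1 and Nrp2 overlapped in controls, and all other neighbours in the control order were separate. The place of Nrp1 is uncertain, since GENCODE gives it only 3597 bp of exon and RefSeq ends the gene 2113 bp further on. With exons to the RefSeq end its level was 51.0 ± 2.64 CPM per kb in controls, within the range of Plxnd1 (40.1 to 54.8 CPM per kb). In all libraries the receptors together were well above the ligands.

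**Figure D4:**
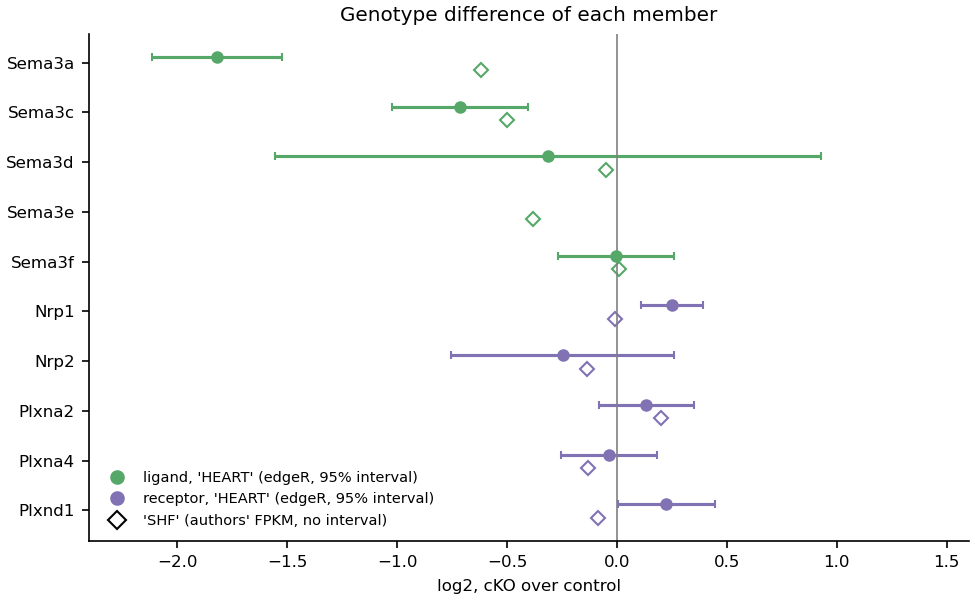
Genotype difference of each member (x axis, log2 of cKO over control). Filled points are edgeR estimates in 'HEART' with 95% intervals (n = 4 per genotype, Sema3e not tested), and open diamonds are ratios of the authors' FPKM in 'SHF', which have no interval and for Nrp1 come from the locus joined with Mir1903. Sema3a (-1.82 and -0.62) and Sema3c (-0.72 and -0.50) were below 0 in both dissections, which share 8 embryos. Nrp1 rose in 'HEART' (0.25) with -0.01 in 'SHF'.

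In 'SHF' the same question could be asked only of 1 value per genotype, with no test, and differences of at least 1.5-fold were counted after adding 0.1 to each FPKM. Tbx1 (25.7 and 26.0 FPKM) and Isl1 (17.7 and 12.8 FPKM), which mark second heart field progenitors, were present. Chd7 itself was 28.2 FPKM in control and 18.9 FPKM in cKO (log2 ratio -0.58, 1.49-fold lower), so the deleted gene fell just short of 1.5-fold. Sema3a was 12.27 FPKM in control and 7.96 FPKM in cKO (log2 ratio -0.62, 1.54-fold lower), and 1.35% of the 11056 loci compared had a lower ratio. Sema3c was 12.9 and 9.08 FPKM (-0.50, 1.41-fold lower), with 1.83% of loci below it. Of 8 members with a mean of at least 1 FPKM, only Sema3a was past 1.5-fold, beside 2.09% of all loci (1.46% lower and 0.633% higher). With a pseudocount of 1 it fell just short. Cardiomyocyte markers summed to 242 FPKM in control and 124 FPKM in cKO, and 6 of the 9 with a mean of at least 1 FPKM were past 1.5-fold lower. Neuron markers summed to 71.8 and 52.5 FPKM, with 2 of 10 past 1.5-fold lower. Second heart field markers summed to 143 and 115 FPKM (median log2 ratio -0.46), with Hand2 and Mef2c past 1.5-fold lower. Proepicardium and septum transversum markers summed to 29.7 and 40.9 FPKM, with Aldh1a2 and Wt1 past 1.5-fold higher. The part of any of these cell types in Sema3a and Sema3c was not tested.

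The remaining members were close between the 'SHF' genotypes. Since Chd7 itself did not reach 1.5-fold in this mixed tissue, a small ratio here does not show that no cell type changed. Sema3f was 12.1 and 12.2 FPKM, Sema3d 6.88 and 6.64 FPKM, and Sema3e 0.858 and 0.636 FPKM, below the minimum for comparison. Among receptors the joined Nrp1 locus was 26.5 and 26.3 FPKM, Nrp2 24.8 and 22.5 FPKM, Plxnd1 21.6 and 20.3 FPKM and Plxna4 7.64 and 6.97 FPKM. Plxna2 was the only member above its control value by more than 0.1 on the log2 scale (15.1 and 17.4 FPKM, 0.20), and 94.9% of loci had a lower ratio. By FPKM, which is per length, the control 'SHF' held nearly equal Sema3c, Sema3a and Sema3f, and Sema3d made up 14.3% of the ligand sum. 'HEART' and 'SHF' were made with different library kits and were not tested against each other. They share 8 embryos, so a fall in both dissections is not a fall in independent animals.

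Sema3d, Sema3a, Sema3e and Sema3c lie in that order within 5.35 Mb of chromosome 5 (chr5:12383385-17730268, GRCm38), among 20 protein-coding genes. The other 16 include the alpha2/delta calcium channel subunit gene Cacna2d1, which lies between Sema3e and Sema3c and was the only one of them tested in 'HEART'. It was 17.5 ± 2.74 CPM in controls and 12.68 ± 0.614 CPM in cKO (-0.46, SE 0.12, edgeR adjusted p = 0.0499). It was thus called lower, as 2.92% of all genes were, and 1 tested gene that is no member gives no measure of the window.

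The genes whose profiles over the 8 'HEART' libraries were most like those of the called ligands were then found. The measure was the root mean square difference of log2 CPM centred on each gene's mean, over 10444 genes of at least 5 CPM. Genotype was not removed from it, so the genes found were bound to fall in cKO about as the ligand did. Their fold changes and adjusted p-values follow from that choice and give no separate support. For Sema3a these were Trdn (triadin of the calcium release complex of muscle, 0.16), Slitrk5 (a neuronal membrane protein, 0.20), Gpr22 (a receptor without a known ligand, 0.21), Tecrl (0.23) and Slit2 (a secreted guidance cue that binds Robo receptors, 0.23). Slit2 was 62.9 CPM in controls and 21.1 CPM in cKO (-1.59, edgeR adjusted p = 0.00068), and Trdn 39.6 and 11.0 CPM (-1.86, adjusted p = 2.44e-05). For Sema3c they were Itm2a (0.11), Arap2 (0.15), Klhl31 (0.15), Mme (the peptidase neprilysin, 0.17) and Scn7a (0.18). Itm2a, a membrane protein, was 119 CPM in controls and 73.8 CPM in cKO (-0.69, edgeR adjusted p = 0.00296).

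The wider pathway was described by 3 further lists. Of 21 other semaphorins and plexins 18 were tested in 'HEART', and 1 rose and 2 fell (3 of 18, beside 6.44% of all genes). Sema3g, a class 3 ligand of vessels, rose from 4.50 ± 0.792 to 8.13 ± 2.25 CPM (0.87, SE 0.21, edgeR adjusted p = 0.038), and so ran against Sema3a and Sema3c. Plxnb1, the receptor of Sema4d, fell from 48.7 ± 4.34 to 39.5 ± 1.86 CPM (-0.30, SE 0.08, adjusted p = 0.0605), and the membrane-bound Sema6d fell from 56.1 ± 8.30 to 42.8 ± 5.28 CPM (-0.39, SE 0.11, adjusted p = 0.0762). Leaving out 1 library at a time kept the call of Sema3g in 5 of 8 fits, and those of Plxnb1 and Sema6d in 3 of 8 each. The calls of all 3 were lost with Xist as a covariate (adjusted p = 0.271, 0.6 and 0.541 in that order).

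Of 31 genes of signalling downstream of plexins, all tested, 1 was called, beside the same 6.44%. It was Mical1, an enzyme that oxidises actin downstream of class A plexins, which rose from 40.8 ± 6.04 to 55.5 ± 0.986 CPM (0.45, SE 0.10, edgeR adjusted p = 0.0195) and was called with each library left out. The median over this list was 0.06. Of 12 other partners of neuropilins 10 were tested and 1 was called, beside that share. Itgb1, the integrin beta 1 subunit, rose from 674 ± 41.4 to 854 ± 63.8 CPM (0.34, SE 0.07, edgeR adjusted p = 0.017), a call that held with each library left out and was lost with Xist as a covariate (adjusted p = 0.107). The VEGF receptor Flt1 had an estimate of 0.41 and did not pass (adjusted p = 0.128). In 'SHF' these 3 lists held 18, 31 and 11 genes with a mean of at least 1 FPKM. None was past 1.5-fold, beside 2.09% of all loci, a share too small for lists of this size to differ from. Vegfc, at 9.23 FPKM in control and 6.18 FPKM in cKO, came nearest.

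**Figure D5:**
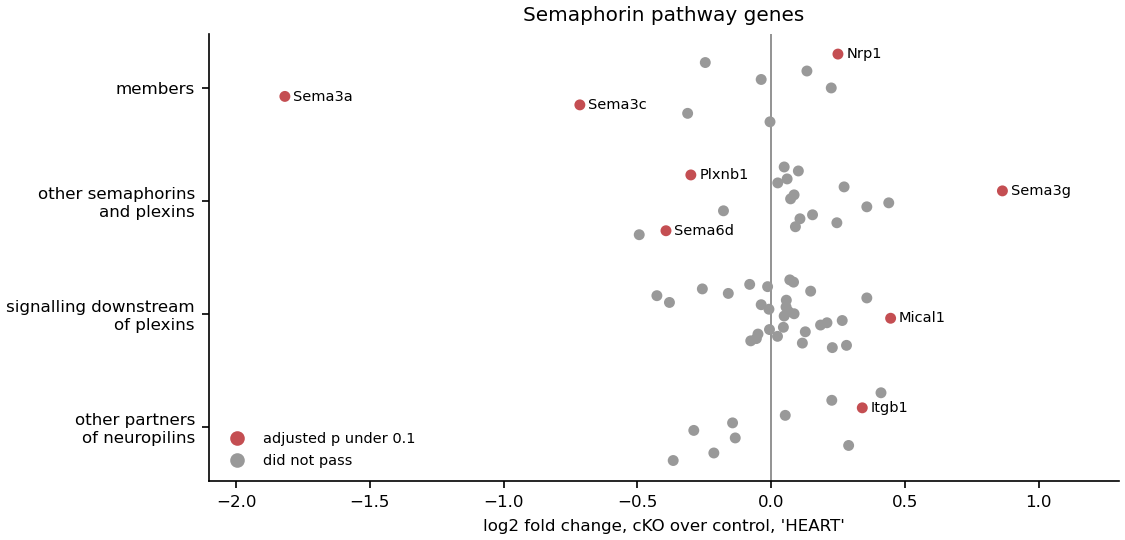
Log2 fold change in 'HEART' (x axis, cKO over control) of each tested member and of the other tested genes of 3 lists (rows), with 1 point per gene, red where the edgeR adjusted p was below 0.1 and grey otherwise. Outside the members, Sema3g, Mical1 and Itgb1 lay above 0 and Plxnb1 and Sema6d below 0 among called genes.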

How the data were processed

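'HEART' libraries were made from poly(A)-selected mRNA with the KAPA mRNA HyperPrep kit and 'SHF' libraries from ribosomal RNA-depleted total RNA, and samples were grouped by their titles. The deposited 'HEART' table held raw counts per gene, which the authors made with fastp 0.20.1 (trimming), STAR 2.7.2b (alignment, mm10) and featureCounts 1.6.4 (counting). For 'SHF' the authors deposited FPKM by locus, as 1 value for each genotype that pools its embryos. The study's methods name STAR 2.5.0b, HTSeq and DESeq2 for 'SHF', but no source used here says how the FPKM values were made, and their depth is unknown. Neither the authors' own fold changes, test statistics, p-values and q-values in both tables nor 8 columns of normalised values in the 'HEART' table were used.

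Counts were fitted with edgeR 4.0.16 (filterByExpr, TMM, glmQLFit, glmQLFTest) in R 4.3.3, with DESeq2 1.42.0 and limma 3.58.1 as alternatives, and 95% intervals used the fit's degrees of freedom. The biological coefficient of variation was 11.2%. Library pairs within a genotype differed by more than sampling noise, most of all those with cKO 4. Their chi-square per degree of freedom was 16.2 to 19.1, against 4.94 to 8.13 among cKO 1 to 3. Pairs with control 4 gave 12.3 to 15.5, against 5.66 to 9.07 among controls 1 to 3. Each library was kept as 1 sample. A date replaced the symbol in 27 gene rows. Positions and exon lengths on GRCm38 were those of GENCODE M21, to which 95.6% of symbols matched. 'SHF' ratios used a pseudocount of 0.1 and loci with a mean of at least 1 FPKM, a scale that understates changes of low genes. All members were named. From the 3 pathway lists every called gene was to be named, up to 8 per list, with Chd7 and the 5 genes most like each of Sema3a and Sema3c. Flt1, Vegfc, Hand2, Fgf10, Mef2c, Nkx2-5, Twist1, Tbx1, Isl1, Tbx18, Aldh1a2, Lhx2, Wt1, Krt8, Krt18, Krt19, Cdh1, Epcam, Foxe1, Pax9 and Cacna2d1 were added after their values were seen. The members, gene lists and motifs were chosen with earlier results of these data known.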

Additional observations from a re-analysis of the deposited data

Results flagged for a closer look

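Among the 20 groups of 4 'HEART' libraries formed by the 10 members and both genotypes, 1 held a value that lay far from the others by Dixon's test of the gap over the range. It was Sema3e in control 4, at 14.2 CPM against 0.453, 0.512 and 1.37 CPM in controls 1 to 3. Chance alone takes about 1 of 20 groups past the cut-off of this test, and groups that share libraries are not independent. That rate belongs to the cut-off and not to the gap found here, which was 0.933 of the range. The same library had the highest erythroid marker sum and the lowest Sema3d (1.49 CPM), and the cause was not tested.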

How the results depend on the processing

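Over 19 alternatives each, the calls of Sema3a and Mical1 were kept in 19, that of Sema3c in 18, Itgb1 in 17, Sema3g in 14, Nrp1 and Sema6d in 12 and Plxnb1 in 11. Sema3d reversed to 0.117 without control 2 (-0.647 to 0.117 over libraries left out), 0.69 with Xist as a covariate and 0.66 for control 1 against cKO, the last chosen after seeing the data. Sema3f reversed to 0.003 with DESeq2, 0.001 with limma-voom, 0.006 with the shared prefix of embryo codes as a random block, 0.11 with Xist, 0.068 for control 1 against cKO, and between -0.091 and 0.059 with libraries left out. Plxna4 reversed to 0.018 with Xist and ranged from -0.114 to 0.036 with libraries left out. The 9 reversals of Sema3f and the 4 of Plxna4 concern estimates near 0 that passed nowhere.

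Genes called numbered 817, and 500 to 1421 with 1 library left out (509 without control 1, 510 without cKO 1, 500 without cKO 2 and 1421 without cKO 4). They were 235 with Xist as a covariate, where 1 member was called, and 253 for control 1 against cKO, where that lone control is assumed to vary like the cKO libraries. Whether the embryos' sex, which Xist marks, acts on these genes was not tested. Deviations from the genotype mean correlated at -0.03 to 0.23 between same-numbered control and cKO libraries. Other pairs gave -0.205 to 0.173, so the ranges overlapped. The highest value was that of control 3 with cKO 3, which also share an embryo code prefix. With a replicate block 917 genes and 3 members were called. Libraries with the same embryo code prefix had a correlation of 0.21, and with that prefix as a random block 897 genes and 3 members were called. Total counts in place of TMM shifted the median to -0.04 and the share called higher from 54.6% to 43.0%.

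In 'SHF', 231 loci and 1 member were past 1.5-fold. The counts were 152 and 0 with a pseudocount of 1, 612 and 2 at the lower threshold tried, 98 and 0 at 2-fold, and 727 or 67 loci without the filter or with a mean of 5 FPKM. Without division by length Sema3a was 45.6% of the ligand sum in controls and 24.5% in cKO. Depth limits Sema3e, at 2 to 17 counts in 7 libraries, and in 'SHF' the lack of single-embryo values.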
